A study of Mus musculus with 6 samples.

Results

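The keratins Krt5, Krt7, Krt8, Krt14, Krt16, Krt18 and Krt19 and the epithelial surface gene Epcam were followed in single-cell RNA counts of 6 libraries made from 4T1, a mammary carcinoma line of the mouse. These 8 genes were taken by symbol from the 28649 gene names in the count tables. 4T1 cells carried a lentiviral short hairpin RNA, directed against Pgk1 in the 3 libraries labelled shPgk1 and non-targeting in the 3 shNC control libraries. Both groups had gone through lentiviral transduction, with puromycin at 2 µg/mL added after 48 h and kept for 7 days to give stable lines, so the controls carry the same virus and drug history. No unmanipulated 4T1 library was among the 6. The labels give biological replicates 1 to 3 in each group but do not say whether separate cultures or animals stood behind them, so the p-values below measure only how far these samples spread, and that spread may be technical. The labels call every library 4T1, an epithelial line, yet 18049 of the 41455 kept barcodes (droplet codes that each stand for about 1 cell) carried immune transcripts. The comparisons below therefore centre on 19335 tumour barcodes, defined by at least 12 unique molecular identifiers (UMIs) of Epcam, Krt7, Krt8 and Krt18 together per 10000 UMIs. That gate uses 4 of the 8 genes and leaves out Krt5, Krt14, Krt16 and Krt19.

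Pgk1, which encodes the glycolytic enzyme phosphoglycerate kinase, had 241, 292 and 317 CPM (counts scaled to a common total per library) in tumour barcodes of libraries 1, 2 and 3 labelled shPgk1, against 277, 240 and 220 CPM in shNC libraries 1, 2 and 3. Pgk1 was thus not lower in the tumour barcodes under its own hairpin (log2 fold 0.33 ± 0.14 SE, edgeR adjusted p = 0.132), and the groups are named below by their labels only.

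Total counts ranged from 111982862 to 128933960 in the libraries labelled shPgk1 and from 78778073 to 113157507 in shNC libraries. Tumour barcodes made up 50.6%, 60.5% and 56.5% of kept barcodes in the libraries labelled shPgk1 and 33.4%, 36.2% and 41.5% in shNC libraries (two-sided exact permutation test, p = 0.1, the smallest that 3 against 3 libraries allow). Their median depth was 10337 to 12640.5 UMIs in the libraries labelled shPgk1 and 7623 to 9082 UMIs in shNC libraries. The share of tumour barcodes that also reached 12 immune-gate UMIs per 10000 was 6.18% to 12.3% in the libraries labelled shPgk1 and 16.0% to 22.8% in shNC libraries. Within tumour barcodes, all 6 immune-gate genes exceeded 5 CPM, and they summed to 375 to 638 CPM in the libraries labelled shPgk1 and 714 to 859 CPM in shNC libraries. The 4 neutrophil markers summed to 133 to 172 CPM in tumour barcodes of the libraries labelled shPgk1 and 367 to 478 CPM in those of shNC libraries. The 7 fibroblast markers, of which 4 exceeded 5 CPM, summed to 299 to 400 CPM in the libraries labelled shPgk1 and 495 to 847 CPM in shNC libraries. None of these markers was at 0. Ribosomal-RNA-like transcripts took 7.63% to 8.87% of tumour barcode counts in the libraries labelled shPgk1 and 9.54% to 12.9% in shNC libraries. Depth, RNA composition, immune UMIs and stromal UMIs therefore moved with the group labels, and their part in the results below was not tested except where a value is given.

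Keratins are the intermediate filament proteins of epithelia, and a filament is built from a type I keratin paired with a type II keratin. Krt8 (type II) and Krt18 (type I) form the basic pair of simple and luminal epithelium, joined there by Krt7 (type II) and Krt19 (type I). Krt5 (type II) and Krt14 (type I) form the pair of basal cells in stratified and mammary epithelium, and Krt16 (type I) is induced in wounded or stressed epidermis. Epcam is a surface glycoprotein of most simple epithelia and is used to identify carcinoma cells.

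On the mouse build GRCm38 (GENCODE M21), Krt8 lies on the minus strand at chr15:101996698-102004482 and Krt18 on the plus strand at chr15:102028180-102032027, a gap of 23697 bases with the genes transcribed away from each other. Krt7 (chr15:101411043-101430313, plus strand) and Krt5 (chr15:101707070-101712898, minus strand) share this type II cluster. The type I genes Krt14 (chr11:100203162-100207548), Krt16 (chr11:100246091-100248902) and Krt19 (chr11:100140810-100148665) lie together on the minus strand of chromosome 11, and Epcam lies at chr17:87635979-87651129 on the plus strand. All 8 are annotated as protein coding.

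The sequences of Krt14 and Krt16 matter for reading their counts, because a stretch of 134 bases is identical in both. It lies in exon 1 and in coding sequence, at chr11:100207017-100207150 in Krt14 and chr11:100248476-100248609 in Krt16 (GRCm38, minus strand). The lines give it from the GENCODE M21 transcripts Krt14-201 and Krt16-201, 5′ to 3′, with the identical stretch in capitals and 30 flanking bases on each side in lower case.
Krt14: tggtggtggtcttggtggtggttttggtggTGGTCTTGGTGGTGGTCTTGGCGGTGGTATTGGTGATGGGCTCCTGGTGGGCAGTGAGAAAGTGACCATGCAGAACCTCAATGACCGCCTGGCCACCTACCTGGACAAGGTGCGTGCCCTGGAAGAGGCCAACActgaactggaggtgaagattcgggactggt
Krt16: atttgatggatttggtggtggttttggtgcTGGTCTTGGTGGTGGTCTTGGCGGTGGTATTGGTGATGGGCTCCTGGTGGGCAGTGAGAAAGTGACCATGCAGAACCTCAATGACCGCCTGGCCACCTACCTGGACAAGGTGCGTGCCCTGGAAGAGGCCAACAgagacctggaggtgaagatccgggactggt
A read that falls wholly inside the capitals cannot be told apart between these genes. Of all 50-base windows of the longest coding transcript, 37.6% of Krt16 and 14.4% of Krt14 were found in another gene's transcripts (each other, Krt17 and, for Krt16, Gm11597). For Krt8 the figure was 26.9%, all of it in the copy Krt8-ps, for Krt5 8.52% and for Krt18 0.72%, while Krt7, Krt19 and Epcam shared no window. Among the last 500 of these windows, 0 were shared for Krt8, 43 for Krt14 and 125 for Krt16. The sources used here do not say how reads matching several genes were counted or where on the transcript they fell, so how far Krt14 and Krt16 levels are touched was not tested.

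The promoters of Krt8 and Krt18, whose UMIs went together most closely across cells, and of Epcam, which passed the test between groups, are shown for comparison. They are RefSeq GRCm38.p6 sequence upstream of the annotated gene start, on the gene's own strand, at chr15:102004483-102004592 for Krt8 (minus strand, 110 bases), chr15:102027966-102028179 for Krt18 (plus strand, 214 bases) and chr17:87635729-87635978 for Epcam (plus strand, 250 bases). Capitals mark a GC box (GGGCGG on either strand), the only searched motif present in the letters shown.
Krt8: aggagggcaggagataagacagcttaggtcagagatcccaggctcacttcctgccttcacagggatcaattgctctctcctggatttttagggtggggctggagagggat
Krt18: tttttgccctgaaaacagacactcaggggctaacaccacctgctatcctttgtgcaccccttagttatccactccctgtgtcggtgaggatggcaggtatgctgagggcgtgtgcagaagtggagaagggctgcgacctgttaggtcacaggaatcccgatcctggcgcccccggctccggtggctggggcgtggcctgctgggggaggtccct
Epcam: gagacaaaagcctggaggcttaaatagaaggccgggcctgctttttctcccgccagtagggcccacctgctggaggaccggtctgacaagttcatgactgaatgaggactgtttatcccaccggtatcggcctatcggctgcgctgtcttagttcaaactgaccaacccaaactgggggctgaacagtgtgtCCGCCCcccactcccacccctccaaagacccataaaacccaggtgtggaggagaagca
RefSeq windows were at hand for 6 of the 8 genes, and 4 motifs were searched on both strands in the 250 bases before the start. The AP-1 motif TGANTCA, the grainyhead motif AACCNGTT and the TATA box TATAAA were in none of the 6 windows, against 6.75%, 1.79% and 12.4% of all 32851 RefSeq windows. The GC box occurred 4 times in the Krt7 window and 1 time in the Epcam window, against 32.7% of all windows with at least 1 match. These matches describe letters only.

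The simple epithelial pair was present in nearly every tumour barcode of both groups, but both genes are part of the gate that selects these barcodes. Across libraries, a Krt18 UMI was found in 97.2% to 98.2% of tumour barcodes and a Krt8 UMI in 93.4% to 96.2%. With a gate on other epithelial genes and no member, the shares were 87.3% to 92.7% for Krt18 and 81.6% to 90.9% for Krt8. In tumour barcodes Krt18 had 1672, 1837 and 1790 CPM in the libraries labelled shPgk1 and 1647, 1711 and 1598 CPM in shNC libraries, and the groups overlapped. Its fitted log2 fold was 0.22 ± 0.09 (SE, edgeR quasi-likelihood test, Benjamini-Hochberg adjusted p = 0.139 over 16660 genes). Krt8 had 1150, 1492 and 1443 CPM in the libraries labelled shPgk1, against 1091, 1187 and 1100 CPM in shNC libraries. Libraries 2 and 3 labelled shPgk1 stood above all controls, and library 1 stood below the highest control. The fitted Krt8 fold was 0.40 ± 0.12, and it missed the threshold (edgeR adjusted p = 0.0651). Without library 1 labelled shPgk1 it was 0.50 and passed (edgeR adjusted p = 0.0247).

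Krt7, the other type II keratin of simple epithelia, had the lowest fold of the 7 tested genes. It had 698, 660 and 630 CPM in the libraries labelled shPgk1 and 658, 591 and 669 CPM in shNC libraries, with interleaved groups (log2 fold 0.17 ± 0.10, edgeR adjusted p = 0.245). Krt19, the smallest type I keratin and one that lacks most of the tail domain, had 109, 117 and 117 CPM in the libraries labelled shPgk1, against 94.1, 108 and 93.9 CPM in shNC libraries. The Krt19 groups did not overlap, but the gap between library 1 labelled shPgk1 and shNC library 2 was small (log2 fold 0.33 ± 0.10, edgeR adjusted p = 0.0610). With shNC library 1 left out the fold was 0.32 and passed (edgeR adjusted p = 0.0479).

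Epcam was the single member called higher in tumour barcodes, although all 7 tested members had positive folds. It had 530, 631 and 614 CPM in the libraries labelled shPgk1 and 485, 443 and 380 CPM in shNC libraries, with every library labelled shPgk1 above every control. The log2 fold was 0.56 ± 0.12 (edgeR adjusted p = 0.0398). Because Epcam is part of the gate, it was refitted with a gate on Krt7, Krt8 and Krt18 alone, which gave 0.57 ± 0.12 (edgeR adjusted p = 0.0418), and with a gate on 7 other epithelial genes and no member, which gave 0.61 ± 0.13 (edgeR adjusted p = 0.0374). Leaving Krt7 or Krt8 out of the gate kept the Epcam call (edgeR adjusted p = 0.0462 and 0.0431). With Krt18 left out of the gate it ended, at 0.49 ± 0.12 (edgeR adjusted p = 0.0642). In tumour barcodes with fewer than 3 immune-gate UMIs Epcam was 0.51 ± 0.15 (edgeR adjusted p = 0.0519). That limit is a raw count not scaled to depth, so it also favours shallow barcodes, and 9642 genes were tested instead of 16660. The call ended when shNC library 2 or 3, or library 2 or 3 labelled shPgk1, was left out, with folds of 0.48 to 0.57 and edgeR adjusted p between 0.0905 and 0.174.

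Of the 7 members tested in tumour barcodes, 1 was called higher and none lower, where 2.02% of all genes were called higher, 3.12% lower and 5.13% in either direction. Krt19 and Epcam, 2 members, had all libraries labelled shPgk1 above all shNC libraries, as did 8.52% of all genes, and no member lay below in the same way, as 27.3% of all genes did. The median of the 7 folds was 0.40, and the median of all genes was -0.03. Scaling by library totals moved the median of all genes to -0.15 and the split of calls to 121 higher and 1410 lower, from 336 and 519. The majority direction of calls also turned with the method, at 1586 higher and 1033 lower with DESeq2, 1397 and 875 without the filter on low counts, and 1919 and 1392 without shNC library 1. Under library totals every tested member kept a positive fold, from 0.05 for Krt7 to 0.80 for Krt16, and Epcam was 0.44 (edgeR adjusted p = 0.0433).

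**Figure D1:**
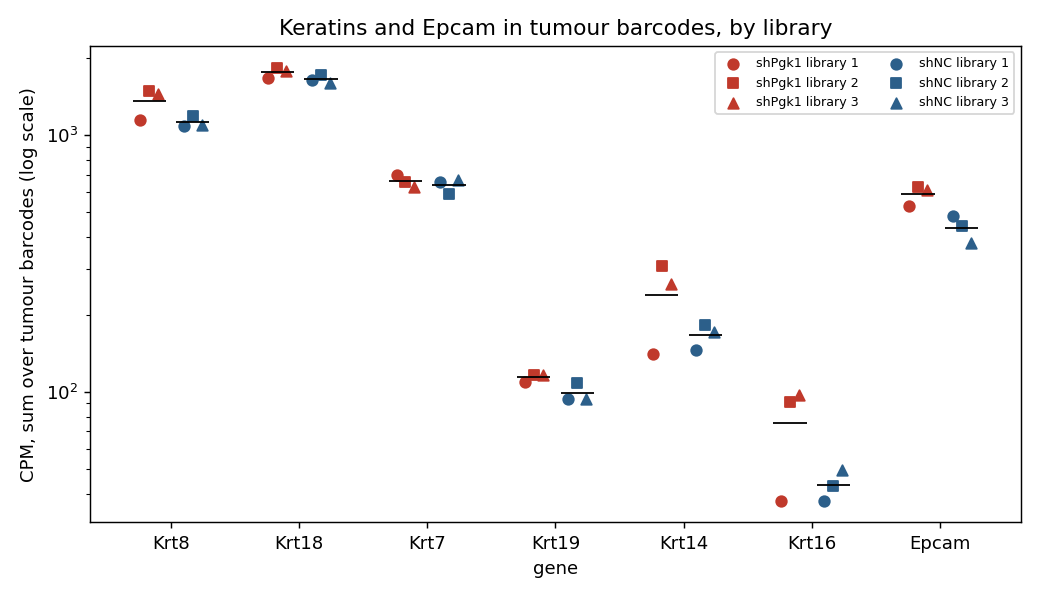
Level of 7 members in tumour barcodes of each library, in CPM on a log axis, with libraries labelled shPgk1 to the left of shNC libraries for each gene; short lines are group means. Epcam and Krt19 have all 3 libraries labelled shPgk1 above all 3 shNC libraries, and for Krt14 and Krt16 library 1 labelled shPgk1 lies at or below the shNC level while libraries 2 and 3 lie above it.

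The basal keratins varied most between libraries. Krt14 had 141, 308 and 264 CPM in the libraries labelled shPgk1, against 145, 183 and 170 CPM in shNC libraries. Krt16 had 37.6, 90.9 and 97.2 CPM in the libraries labelled shPgk1, against 37.6, 42.7 and 49.5 CPM in shNC libraries. In both genes libraries 2 and 3 labelled shPgk1 were the highest of the 6 and library 1 was the lowest by a narrow margin. The folds were 0.65 ± 0.29 for Krt14 (edgeR adjusted p = 0.173) and 0.93 ± 0.38 for Krt16 (edgeR adjusted p = 0.164), the widest errors among the members. Without library 1 labelled shPgk1 they were 0.91 (edgeR adjusted p = 0.0101) and 1.24 (edgeR adjusted p = 0.00387).

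Krt5, the type II partner of Krt14, was nearly missing. Tumour barcodes held 0, 3 and 7 Krt5 counts in the libraries labelled shPgk1 and 1, 10 and 25 in shNC libraries, too few to pass the filter on low counts. Some alternative settings kept Krt5 in the fit. With the gate on no member its log2 fold was -4.44 (edgeR adjusted p = 0.0167), at a gate of 6 per 10000 UMIs -3.83 (edgeR adjusted p = 0.0274) and without shNC library 1 -3.33 (edgeR adjusted p = 0.0158), while without the filter it was -2.71 (edgeR adjusted p = 0.221). In the tumour barcodes Krt14 had 69216 counts in all. Krt5 counts over all kept barcodes were 0, 3 and 7 in the libraries labelled shPgk1 and 66, 59 and 26 in shNC libraries. Of these 161 counts, 135 came from 9 barcodes with at least 2 Krt5 UMIs each, 1 in library 3 labelled shPgk1 and the other 8 in shNC libraries, and a single barcode of shNC library 1 held 47. All 9 also held Krt14, Lgals7 (a galectin of stratified epithelia) and Sfn (stratifin), 7 held Krt17, 5 held the hemidesmosome collagen Col17a1 and 4 held Trp63, the master regulator of basal epithelium. Acta2, the smooth muscle actin of myoepithelium, was in 3 of the 9, and 5 of the 9 lay in the tumour gate. The same 9 barcodes were mixed, with Krt18 and Epcam in 8, Krt7 in 7, Krt8 in 6 and the fibroblast marker Col1a1 in 7. Of skin differentiation genes, Dmkn was in 3, Krtdap in 2, Krt10 in 1 and Krt1 in 0. The Krt5 difference between groups thus rests on a few barcodes.

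To compare cells at equal depth, each tumour barcode was thinned at random to 4000 UMIs, which left 2620, 3467 and 3369 barcodes in the libraries labelled shPgk1 and 1957, 1644 and 2119 in shNC libraries. Shallower barcodes were left out, 701, 934 and 731 in the libraries labelled shPgk1 and 570, 568 and 655 in shNC libraries. Exact permutation tests on these shares cannot go below p = 0.1, and Wilson 95% intervals of single libraries cover counting error only. A Krt18 UMI was found in 98.5% to 99.0% of thinned barcodes in the libraries labelled shPgk1 and 98.1% to 98.4% in shNC libraries. A Krt8 UMI was found in 94.5%, 96.9% and 96.1% in the libraries labelled shPgk1, against 91.3%, 92.4% and 93.9% in shNC libraries (two-sided exact permutation test, p = 0.1). The Krt8 shares did not overlap at this depth, where they differed by 3.34 percentage points. The Krt8 difference was 5.51 points at 2000 UMIs and 0.47 points at 8000 UMIs, where the groups overlapped (two-sided exact permutation test, p = 0.3).

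An Epcam UMI was found in 76.5%, 80.9% and 78.5% of thinned barcodes in the libraries labelled shPgk1 and in 73.0%, 68.9% and 67.5% in shNC libraries, a difference of 8.86 percentage points with no overlap (two-sided exact permutation test, p = 0.1). Without thinning the difference was 8.37 points. In immune barcodes, which should lack Epcam, the thinned shares were 17.1%, 21.3% and 20.4% in the libraries labelled shPgk1 and 13.2%, 10.6% and 11.6% in shNC libraries, a difference of 7.78 points, also with no overlap. The Krt19 shares were 29.6%, 31.7% and 32.4% in the libraries labelled shPgk1 and 25.9%, 28.1% and 26.1% in shNC libraries, again without overlap (two-sided exact permutation test, p = 0.1). Krt7 shares interleaved, at 80.4% to 82.6% in the libraries labelled shPgk1 and 77.3% to 83.2% in shNC libraries (two-sided exact permutation test, p = 0.4).

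Krt14 was found in 29.7%, 47.3% and 45.4% of thinned barcodes in the libraries labelled shPgk1, against 28.7%, 34.6% and 33.2% in shNC libraries (two-sided exact permutation test, p = 0.3). For the first of these shares the Wilson interval was 27.98% to 31.5% and for the second 45.7% to 49.0%, so the libraries labelled shPgk1 differed among themselves beyond counting error. Krt16 was found in 9.27%, 17.05% and 19.1% in the libraries labelled shPgk1 and in 8.53%, 9.61% and 11.8% in shNC libraries (two-sided exact permutation test, p = 0.3). Krt5 was found in 0 of 2620 and 0 of 3467 thinned barcodes in libraries 1 and 2 labelled shPgk1, which on a floor of 3 counts allows shares of barcodes with a Krt5 UMI of up to 0.115% and 0.0865%. It was found in 1 of 3369 in library 3 labelled shPgk1, and in 1 of 1957, 2 of 1644 and 4 of 2119 in shNC libraries 1, 2 and 3. The share in shNC library 1, 0.0511%, lay below both limits.

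Within the gated barcodes, many held luminal and basal keratins together. With 1 UMI as the limit, luminal keratins (Krt7, Krt8, Krt18 or Krt19) without a basal keratin (Krt5, Krt14 or Krt16) were found in 8451 of the 15176 thinned barcodes, both kinds in 6719, basal keratins alone in 2 and neither in 4. The gate sums Krt7, Krt8, Krt18 and Epcam and so keeps out barcodes with basal keratins and few luminal UMIs, which means that the count of basal keratins alone follows from the gate. Outside the gate lay, for example, the 3 barcodes of shNC library 1 with at least 2 Krt5 UMIs, which held 63 Krt5, 77 Krt14, 0 Krt8 and 3 Krt18 UMIs in all. Barcodes with both kinds made up 34.5%, 53.6% and 53.3% in the libraries labelled shPgk1 and 33.6%, 40.0% and 40.0% in shNC libraries. Library 1 labelled shPgk1 sat among the controls and libraries 2 and 3 sat above them. Raising the limit to 3 UMIs of each kind gave 8.24%, 18.7% and 17.99% in the libraries labelled shPgk1 and 6.75%, 10.1% and 10.1% in shNC libraries, the same order of groups with the same overlapping library.

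Barcodes with at least 5 basal keratin UMIs made up 2.75%, 8.97% and 7.72% of thinned barcodes in the libraries labelled shPgk1 and 2.96%, 3.89% and 3.68% in shNC libraries. Basal keratins took 4.67%, 8.55% and 8.17% of the UMIs of the 7 keratins in the libraries labelled shPgk1 and 4.82%, 5.90% and 5.99% in shNC libraries. Basal UMIs were unevenly spread, since the top 10% of barcodes held 48.6% to 58.1% of them in the libraries labelled shPgk1 and 54.2% to 59.2% in shNC libraries, while the top 10% for Krt18 held 22.2% to 23.3% of its UMIs in the libraries labelled shPgk1 and 23.3% to 24.4% in shNC libraries. The levels of Krt18 and of the basal keratins differ, and these shares were not corrected for level.

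**Figure D2:**
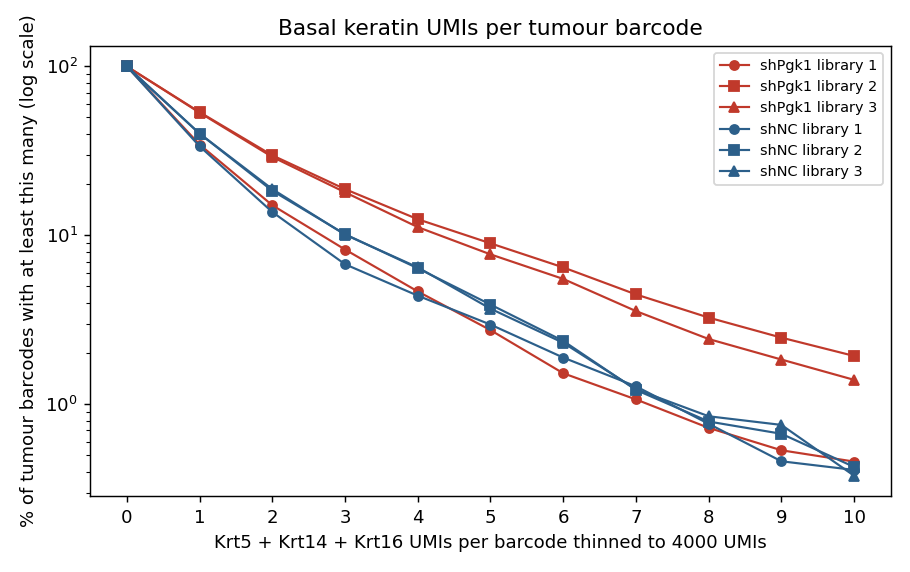
Share of thinned tumour barcodes, in percent on a log axis, with at least the number of basal keratin UMIs (Krt5, Krt14 and Krt16 summed) on the horizontal axis, 1 line per library. The lines of libraries 2 and 3 labelled shPgk1 lie above the others from 1 UMI on, reaching 8.97% and 7.72% at 5 UMIs, while library 1 labelled shPgk1 runs with the 3 shNC libraries.

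Within the gate, which requires luminal UMIs or Epcam, barcodes with more basal UMIs also held more luminal ones. Mean luminal UMIs per thinned barcode were 18.4, 20.2 and 19.9 in barcodes with at least 5 basal UMIs and 13.5, 14.5 and 14.2 in barcodes with none, in the libraries labelled shPgk1. In shNC libraries they were 17.2, 17.7 and 17.01 in barcodes with at least 5 basal UMIs and 12.5, 12.96 and 12.9 in barcodes with none. The direction was thus the same in 6 of 6 libraries. The balance inside the simple pair also differed between groups, with 68.5, 81.4 and 80.3 Krt8 UMIs per 100 Krt18 UMIs in the libraries labelled shPgk1 and 65.3, 68.0 and 67.3 in shNC libraries. This ratio of UMIs is not corrected for transcript length, and the lowest library labelled shPgk1 lay close to the highest control.

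Correlations between members across thinned barcodes were computed within each library and are descriptions only, since barcodes of 1 library share its depth and free RNA. The gate also selects barcodes on the sum of Krt7, Krt8, Krt18 and Epcam, and the values were not corrected for that selection or for level. The highest of the 28 pairs was Krt8 with Krt18, at a mean Pearson r of 0.35 over 6 libraries (0.31 to 0.37). Krt7 followed with Krt18 at 0.23 and with Krt8 at 0.16. The basal pair Krt14 and Krt16 had a mean r of 0.17 (0.12 to 0.24), and both were found together 1.26 to 1.64 times as often as the product of their shares. These genes share the identical stretch printed above, and its part in this value was not tested. Krt7 and Epcam were uncorrelated in every library, with r between -0.02 and 0.02. Epcam and Krt18 had a mean r of 0.06.

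**Figure D3:**
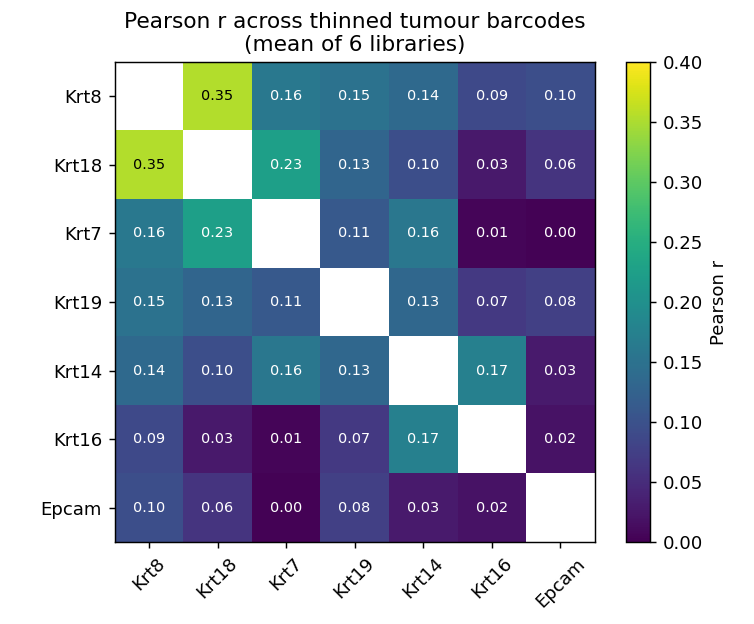
Mean Pearson correlation of log-transformed thinned UMI counts between 7 members across tumour barcodes, averaged over 6 libraries and given in each cell of the grid. The simple epithelial pair Krt8 and Krt18 has the highest value, 0.35, and Epcam has values of 0.10 or less with every keratin.

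Among the 4255 genes with a mean of at least 0.1 UMI per thinned barcode, the 3 genes most correlated with each member differed by member. For Krt8 they were Lmna (lamin A/C, a nuclear intermediate filament protein) at a mean r of 0.36, Krt18 at 0.35 and Nlrp4e at 0.34. Krt18 had Krt8 at 0.35, Lgals1 (galectin-1) at 0.25 and S100a10 at 0.23, and Krt7 had S100a6 at 0.35, Lgals1 at 0.32 and Actb (beta-actin) at 0.27. Krt14 had Sfn at 0.24, S100a6 at 0.23 and Crip1 at 0.22. Krt16 had Nfkbia (an inhibitor and target of NF-kB) at 0.25, Sfn at 0.21 and the chemokine Cxcl1 at 0.21. Krt19 had low values throughout, led by Krt8 at 0.15, S100a10 at 0.13 and Krt14 at 0.13. Epcam shared none of these leading genes with the keratins, and had Clu (clusterin) at 0.31 and the MHC class I genes H2-D1 and H2-K1 at 0.28 each. All are means of 6 within-library values.

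The tumour barcodes were divided by 2 sets of genes that include no member, into barcodes with more Hmga2, Tiam2 and Efna5 UMIs than Lcn2, Clu and H19 UMIs (4290 barcodes) and those with fewer (13306 barcodes). These sides are ranges of a difference in counts, not cell types. The Hmga2 side held 19.7%, 17.8% and 16.98% of tumour barcodes in the libraries labelled shPgk1 and 22.8%, 32.3% and 31.2% in shNC libraries. Epcam was lower on the Hmga2 side in 6 of 6 libraries, at 0.62 to 0.76 of its CPM on the Lcn2 side, and Clu, its closest gene above, is among the genes that define the sides. Krt19 was lower there too in 6 of 6 libraries, at 0.72 to 0.86, while Krt16 was higher in 6 of 6, at 1.04 to 1.63. Krt7 stood at 0.92 to 1.06 and showed no common direction.

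Within the sides no member was called different between groups, where 0.366% of all genes were called in either direction on the Hmga2 side and 1.09% on the Lcn2 side (edgeR). At an unadjusted p under 0.05, 2135 genes stood out on the Hmga2 side and 3692 on the Lcn2 side. Epcam on the Hmga2 side had 405, 498 and 406 CPM in the libraries labelled shPgk1, against 364, 353 and 288 CPM in shNC libraries (log2 fold 0.47 ± 0.16, edgeR adjusted p = 0.186). On the Lcn2 side Epcam had 558, 655 and 653 CPM in the libraries labelled shPgk1, against 523, 494 and 422 CPM in shNC libraries (0.42 ± 0.11, edgeR adjusted p = 0.0829). The Epcam groups did not overlap on either side. On the Hmga2 side 4 of 7 tested members (Krt8, Krt18, Krt19 and Epcam) had all libraries labelled shPgk1 above all shNC libraries, as did 5.34% of all genes. On the Lcn2 side 1 of 7 did, as did 10.1% of all genes. No member lay below in the same way on either side, as 14.6% and 16.6% of all genes did. Epcam was thus higher on both sides, with folds below the 0.56 in all tumour barcodes and without passing the threshold. The Hmga2 side, where Epcam was lower, held a smaller share of tumour barcodes in the libraries labelled shPgk1. The part of that shift in the fold of 0.56 was not tested.

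Krt8 on the Hmga2 side had 1044, 1369 and 1510 CPM in the libraries labelled shPgk1, against 922, 945 and 900 CPM in shNC libraries (0.60 ± 0.17, edgeR adjusted p = 0.119). Its fold on the Lcn2 side was 0.24 ± 0.11 (edgeR adjusted p = 0.241). The term for the difference of the group effect between sides was 0.35 ± 0.11 for Krt8, with an unadjusted edgeR p of 0.00326 and an adjusted p of 0.565. Krt18 had folds of 0.35 ± 0.15 on the Hmga2 side (edgeR adjusted p = 0.261) and 0.07 ± 0.08 on the Lcn2 side (edgeR adjusted p = 0.627). For Krt18 the side term was 0.27 ± 0.11, with an unadjusted edgeR p of 0.0177 and an adjusted p of 0.784. The side term was called for 0.0204% of all genes and for no member.

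**Figure D4:**
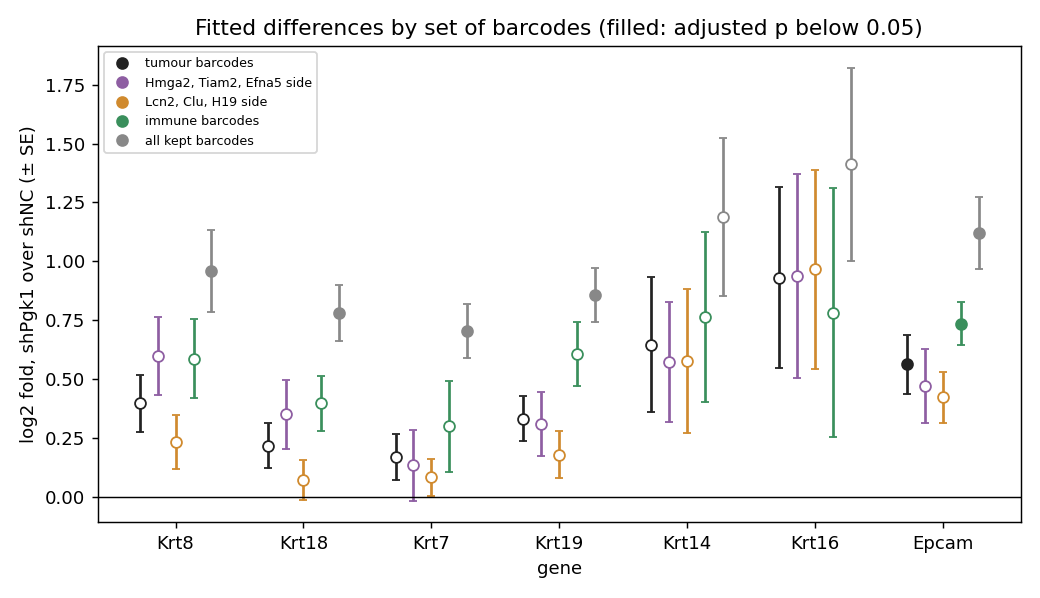
Fitted log2 fold of libraries labelled shPgk1 over shNC libraries (edgeR, with SE as bars) for 7 members in 5 sets of barcodes, filled where the adjusted p was below 0.05. Folds over all kept barcodes are the highest for each gene, up to 1.41 for Krt16, and in tumour barcodes only Epcam, at 0.56, is filled.

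Over all kept barcodes, with no gate, 5 of the 8 members were called higher and 1 lower in the libraries labelled shPgk1, where 9.43% of all genes were called higher and 7.11% lower. Epcam had a log2 fold of 1.12 ± 0.15 (edgeR adjusted p = 0.0172), Krt8 of 0.96 ± 0.17 (edgeR adjusted p = 0.0212) and Krt19 of 0.86 ± 0.11 (edgeR adjusted p = 0.0172). Krt18 and Krt7 were called at 0.78 and 0.71, and Krt5 was called lower at -4.14 ± 0.69 (edgeR adjusted p = 0.0190), a fitted value that rests on the 161 counts described above. In these sums a larger number of tumour cells and more RNA per cell cannot be told apart, and the tumour share of barcodes was 18.8 percentage points higher in the libraries labelled shPgk1. Each of these 6 calls ended when shNC library 2, or library 2 or 3 labelled shPgk1, was left out, with edgeR adjusted p between 0.0635 and 0.0927. Krt14 and Krt16 missed the threshold at 1.19 and 1.41 (edgeR adjusted p = 0.0521 and 0.0561).

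Members were also counted in barcodes that should not express them. Immune barcodes outside the tumour gate held 87.5 to 147 CPM of Krt18 across the 6 libraries, and each of the 7 members other than Krt5 stood there at 5.11% to 16.0% of its tumour level. Thinned to 4000 UMIs, 30.1% to 45.1% of immune barcodes held a Krt18 UMI, 22.3% to 42.5% a Krt8 UMI and 10.6% to 21.3% an Epcam UMI. A Krt19 UMI was held by 2.81% to 5.05%. For these 4 genes the groups did not overlap, with the libraries labelled shPgk1 higher. By CPM, 4 of 7 tested members had all libraries labelled shPgk1 above all shNC libraries here, as did 14.6% of all genes. A Krt7 UMI was held by 13.97% to 22.2%, a Krt14 UMI by 4.56% to 14.2% and a Krt16 UMI by 1.39% to 5.05%. All of these are below the shares in tumour barcodes of the same library. Median depth before thinning was 11203 to 14643 UMIs in immune barcodes of the libraries labelled shPgk1 and 9044.5 to 10741.5 in those of shNC libraries. It lay above the tumour median in every library but library 3 labelled shPgk1.

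Krt7, Krt8, Krt14 and Epcam stood in similar proportion to Krt18 in macrophage, T or NK and fibroblast-marker barcodes. For each 100 Krt18 counts, macrophage-marker barcodes held 80.0 Krt8, 44.7 Krt7, 17.2 Krt14 and 33.2 Epcam counts, and T or NK-marker barcodes held 81.9, 43.2, 16.4 and 35.1 of the same genes. In fibroblast-marker barcodes the values were 85.5, 48.1, 17.996 and 32.6, and in tumour barcodes 74.8, 37.7, 12.7 and 31.4. Krt18 itself ranged over the 6 libraries from 86.1 to 148 CPM in macrophage-marker, 78.5 to 138 in T or NK-marker, 107 to 185 in neutrophil-marker, 92.5 to 156 in fibroblast-marker and 82.5 to 157 CPM in endothelial-marker barcodes. These ranges overlap each other, and all lie below the 1598 to 1837 CPM of tumour barcodes. Krt19 departed from this in fibroblast-marker barcodes, with 13.98 counts per 100 Krt18 counts against 6.29 in tumour barcodes, in part through 1 barcode of shNC library 1 that held 128 Krt19 UMIs beside 5 Krt18 UMIs. Krt5 departed in the barcodes that were in neither the tumour nor the immune set, at 0 CPM in the 3 libraries labelled shPgk1, against 7.31, 4.69 and 0 CPM in shNC libraries.

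Epcam was also called higher in the immune barcodes. Epcam had 46.3, 55.9 and 55.8 CPM there in the libraries labelled shPgk1, against 33.7, 28.2 and 31.3 CPM in shNC libraries (log2 fold 0.74 ± 0.09, edgeR adjusted p = 0.0211), and it was the 1 member called, where 0.0536% of all genes were called higher and 0.769% in either direction. Krt14 in immune barcodes had 16.5, 35.8 and 29.9 CPM in the libraries labelled shPgk1 and 12.4, 13.7 and 21.2 CPM in shNC libraries, so libraries 2 and 3 labelled shPgk1 were again the highest (edgeR adjusted p = 0.292). Whether the levels in immune barcodes came from free RNA in the droplets was not tested.

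**Figure D5:**
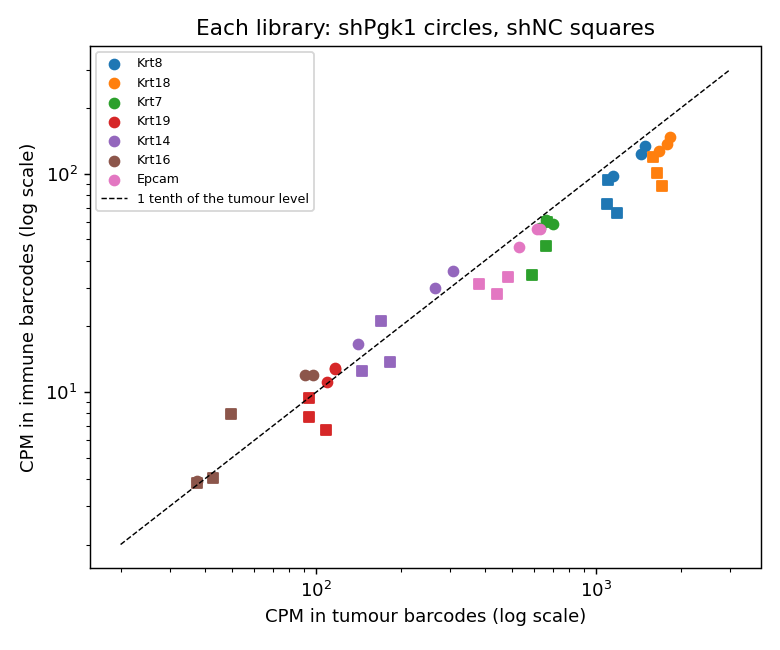
CPM of 7 members in immune barcodes against CPM in tumour barcodes of the same library, both on log axes, with libraries labelled shPgk1 as circles and shNC libraries as squares; the dashed line marks 10% of the tumour level. Points lie between 5.11% and 16.0% of the tumour level. Krt7, Krt8, Krt18 and Epcam lie below the line in every library, Krt16 lies above it in all but shNC library 2, and Krt14 and Krt19 lie on both sides.

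Other genes of the epithelial programme were counted by list in tumour barcodes. Of 45 other measured keratins, 9 were tested, 1 rose and none fell, where 2.02% of all genes rose and 3.12% fell. The median log2 fold of these keratins was 0.15, against -0.03 over all genes. The 1 was Krt42, a type I keratin, at 2.52, 3.78 and 4.22 CPM in the libraries labelled shPgk1 and 1.51, 1.58 and 2.06 CPM in shNC libraries (1.16 ± 0.23, edgeR adjusted p = 0.0350), named although it lies below 20 CPM. Krt17, another type I keratin of basal and wounded epithelium that shares sequence with Krt14 and Krt16, had 11.4, 33.1 and 18.8 CPM in the libraries labelled shPgk1 and 16.9, 24.9 and 30.2 CPM in shNC libraries, with no difference called (edgeR adjusted p = 0.953).

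Of 15 genes that anchor keratin filaments at desmosomes and hemidesmosomes, 1 rose and none fell, where 2.02% of all genes rose and 3.12% fell, with a median of 0.12. Dsp (desmoplakin, which ties keratin to the desmosome) had 18.7, 25.6 and 24.3 CPM in the libraries labelled shPgk1, against 16.3, 18.7 and 14.7 CPM in shNC libraries (0.59 ± 0.14, edgeR adjusted p = 0.0454). Jup (plakoglobin) was 0.33 ± 0.09 (edgeR adjusted p = 0.0526) and Dst (dystonin, of the hemidesmosome) was -0.36 ± 0.11 (edgeR adjusted p = 0.0707), both short of the threshold. Of 25 further epithelial identity genes, 2 rose and none fell, with a median of 0.15. These were Rab25, a GTPase of apical recycling, with 69.7, 75.0 and 78.2 CPM in the libraries labelled shPgk1, against 64.1, 53.0 and 49.2 CPM in shNC libraries (0.54 ± 0.12, edgeR adjusted p = 0.0391), and Spint2, an inhibitor of serine proteases such as matriptase, at 0.39 ± 0.09 (edgeR adjusted p = 0.0425). Cdh1 (E-cadherin) had 119, 129 and 123 CPM in the libraries labelled shPgk1 and 129, 161 and 161 CPM in shNC libraries, a fold of -0.16 ± 0.11 (edgeR adjusted p = 0.328), and Grhl2, a grainyhead factor of epithelia, was at -0.27 ± 0.11 (edgeR adjusted p = 0.123). Epcam thus passed the test while Cdh1 did not, and the difference between these genes was not tested.

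Lineage genes of the mammary gland gave 2 calls, both lower in the libraries labelled shPgk1. Of 17 luminal lineage genes, 13 were tested, none rose and 2 fell, with a median of -0.25. Among all genes 2.02% rose and 3.12% fell, and 27.3% had all libraries labelled shPgk1 below all shNC libraries. They were Aldh1a3, at 0.18 to 0.20 CPM in the libraries labelled shPgk1 and 0.46 to 1.33 CPM in shNC libraries, and the receptor Kit, at 1.15 to 1.28 CPM in the libraries labelled shPgk1 and 1.90 to 3.07 CPM in shNC libraries. Elf5, Pgr, Csn2 and Wap were too low to be tested, and Gata3, the luminal transcription factor, was at 0.15 ± 0.10 (edgeR adjusted p = 0.316). Of 17 basal and myoepithelial genes, 15 were tested and none was called, with a median of -0.33 and, in the same edgeR fit, 5328 of 16660 genes at an unadjusted p under 0.05. Trp63 was below 1 CPM in every library, Itgb4 (of the hemidesmosome) was at 0.08 ± 0.09 (edgeR adjusted p = 0.598) and Vim (vimentin) at 0.43 ± 0.13 (edgeR adjusted p = 0.0672). Of 16 stress keratins and skin differentiation genes, 7 were tested, none rose and 1 fell, with a median of 0.24. It was Dmkn (dermokine), at 0.29 to 0.42 CPM in the libraries labelled shPgk1 and 0.93 to 1.64 CPM in shNC libraries. Krt14 itself was not called in tumour barcodes (edgeR adjusted p = 0.173). Of its usual basal companions, Krt17 and Trp63 were not called either and Krt5 did not pass the filter on low counts.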

How the data were processed

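The authors deposited raw UMI counts per gene and barcode, with a matrix for each library. Seurat 4 was used and GRCh38 (hg38) was named, per the submitters' processing notes, while the file headers name PISA 0.12. The gene names are mouse names, 27957 of 28649 (97.6%) found in GENCODE M21, and the sources used here do not give the build or aligner of these counts. Libraries were grouped by title. Barcode names are serial numbers, so names shared by libraries (1234 to 1671 for each pair) carry no information on shared cells, and the libraries differed pairwise by more than sampling noise (chi-square per degree of freedom 24.1 to 273).

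Of 42902 barcodes, those with a minimum of 500 UMIs and 300 genes and no more than 20% mitochondrial counts were kept, less 804 with a Scrublet score above 0.25 (scanpy 1.11.5, Python 3.11.15), which left 41455. The limit was set because Scrublet's own threshold marked almost no doublets. The tumour gate was 12 per 10000 UMIs, with 1510 barcodes between 9 and 12 and 1146 between 12 and 15. Immune barcodes lay outside it with at least 12 per 10000 UMIs of Ptprc, Tyrobp, Fcer1g, Laptm5, Coro1a and Cd52. Barcodes outside the tumour gate were assigned to a marker kind by the list with the highest sum, if that sum reached 12 per 10000 UMIs. Macrophage, T or NK and neutrophil kinds also had to reach the immune limit, and fibroblast and endothelial kinds had to stay below it. The remaining barcodes were given no kind.

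Counts were summed per library and tested with the quasi-likelihood test of edgeR 4.0.16, run in R 4.3.3 (robust fit, TMM, filterByExpr, group as the only term), adjusted by Benjamini-Hochberg over all genes tested at a threshold of 0.05. Folds are libraries labelled shPgk1 over shNC. The scripts were tested on simulated data. DESeq2 1.42.0, other gates, thinning depths and left-out libraries were alternatives. The members and gene lists were chosen with earlier results of these data known. In the lists, called genes with at least 20 CPM were named by rule, and the others named were chosen after their values were seen. Columns of other samples numbered 0.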

Additional observations from a re-analysis of the deposited data

How the results depend on the processing

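All 188 alternative folds that were counted kept their sign, and 149 of them also kept their side of the threshold. A gate with 1 of its genes left out was counted only for that gene's own fold. The Epcam fold with Krt18 out of the gate and the Krt5 folds in tumour barcodes therefore stand outside this count. Among all 305 alternative values none reversed and 247 counted as the same. In that count, shares were judged by sign alone and counts of called genes by staying of similar size. In tumour barcodes DESeq2 called Krt8 at 0.43, Krt14 at 0.68 and Krt19 at 0.37. Without a filter on low counts Krt8 was 0.44 and Krt19 0.38, and at a gate of 6 per 10000 UMIs Krt19 was 0.37, all past the threshold. Epcam lost its call at a gate of 24 per 10000 UMIs (0.49), with Krt18 out of the gate (0.49) and with fewer than 3 immune UMIs (0.51). The 855 genes called became 2619 with DESeq2, 2272 without a filter, 1531 with library totals (a scaling chosen after seeing the data), 209 at the gate of 24, 412 with fewer than 3 immune UMIs, 564 with Krt7 out of the gate and 170 with Krt18 out of it. The cause was not tested. Over all kept barcodes Krt14 passed with DESeq2 size factors (1.21).

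With the replicate number as a block, which does not pair these samples (correlations of same-numbered libraries -0.01, 0.02 and -0.08), Epcam was 0.57 (edgeR adjusted p = 0.0799), 254 genes were called in tumour barcodes, and Krt14 over all kept barcodes was 1.08 (edgeR adjusted p = 0.0413).

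Leaving out 1 library at a time gave, in tumour barcodes, 19 (without library 3 labelled shPgk1) to 3311 (without shNC library 1) called genes, Epcam 0.48 to 0.67, Krt8 0.33 to 0.50, Krt14 0.43 to 0.91, Krt16 0.67 to 1.24 and Krt19 0.29 to 0.40. Over all kept barcodes it gave 3 (without shNC library 2 or library 3 labelled shPgk1) to 5173 (without library 1 labelled shPgk1) called genes, Epcam 1.01 to 1.33, Krt5 -5.16 to -3.56, Krt7 0.61 to 0.82, Krt8 0.83 to 1.199, Krt14 0.90 to 1.56, Krt16 1.17 to 1.83, Krt18 0.69 to 0.96 and Krt19 0.79 to 1.03. Krt5, with 46 counts in tumour barcodes, did not pass the low-count filter there. Under settings that kept it, its fold was -4.44 to -2.30, past the threshold with the gate on no member, at the gate of 6 and without shNC library 1 only.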
